A study of Mus musculus with 20 samples.

Results

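The 37 genes described here are the matrix proteases of the Mmp and Adamts families, the Adamts-like proteins and the tissue inhibitors of metalloproteinases (Timp) that were measurable in differentiating 3T3-L1 cells. They are the rows named Mmp, Adamts, Adamtsl or Timp plus a number in all 5 deposited tables, kept where some table gave a mean normalised count of 10 or more, which is 37 of 33581 rows. The names cover 51 rows, of which 14 stayed under that level. The members are 15 Mmp, 13 Adamts, 5 Adamtsl and 4 Timp genes, and all 37 were among the 16497 genes tested. The members nearest the limit were Adamts17 (13.6), Mmp17 (15.5) and Mmp16 (15.9), and the nearest rows below it were Adamts13 (7.34) and Mmp8 (5.82), each as the highest mean normalised count of a table.

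3T3-L1 is an established mouse preadipocyte line that forms fat cells in culture. Every group carried a SMARTvector lentiviral shRNA, brought into very low passage cells, and was kept as a mixed population selected with puromycin. The scrambled groups carried a control hairpin (shScr), and the knockdown groups a hairpin against Tcf7l2 (shTcf7l2), which encodes a transcription factor of the Wnt pathway. Both arms were sampled at days 0, 2, 4, 6 and 8 of differentiation in medium without a routinely added thiazolidinedione, with 2 libraries per arm and day, so 20 libraries in 10 groups. The question the design poses is which genes depend on Tcf7l2 during adipogenesis. Each arm is 1 hairpin and, as far as the labels say, 1 selected population, so that an effect of the hairpin or of the population cannot be told apart from loss of Tcf7l2. The labels do not tie the 2 libraries of a group to separate cultures. P-values of single days and of changes over time then measure only the spread between libraries of a group, pooled over the 10 groups, which may be technical. The p-value of the average over days also takes in how the difference varied between days.

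Matrix metalloproteinases are zinc enzymes that are made as inactive precursors and cut collagens and other matrix proteins outside the cell or at its surface. Adamts enzymes cut proteoglycans, procollagens and other matrix proteins, and Adamts-like proteins share their binding domains but lack the protease domain. Timps bind the active site of these enzymes. During adipogenesis the fibrillar matrix of the preadipocyte is remodelled towards a basement membrane around the fat cell.

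Levels between genes are compared per length, as RPM (reads scaled to library size) per kilobase of exon, averaged over the 20 libraries. Mmp2 stood first at 630.3 RPM per kilobase. Timp2 followed at 280.9, Adamts1 at 186.2, Mmp14 at 135.1 and Timp1 at 66.5 RPM per kilobase. Mmp2 made up 66.9% to 83.0% of the summed Mmp level of a group, and Timp2 70.7% to 86.7% of the summed Timp level. At the other end Adamts17, Mmp16, Adamts16, Mmp17 and Adamtsl2 averaged 0.0487 to 0.0898 RPM per kilobase and rest on 213 to 411 reads in all 20 libraries. The summed Timp level of the scrambled groups was 485.7 ± 17.5 RPM per kilobase at day 0 and 277.4 ± 161.0 at day 8 (SD, n = 2), and that of the knockdown groups was 499.0 ± 64.8 and 455.2 ± 25.7. The scrambled day 8 libraries differed, with 391.3 in library 1 and 163.6 in library 2, so the range of the scrambled group is wide.

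Of the genes with a promoter sequence in RefSeq (26 promoters of 24 members, build GRCm38.p6, 250 bases before to 50 after the start), 4 held the AP-1 motif TGANTCA, searched on both strands. AP-1 is a dimer of Fos and Jun proteins. All 4 lie in 1 cluster of Mmp genes on chromosome 9, which spans 427072 bases and holds 10 rows of the tables, 5 of them members (Mmp3, Mmp10, Mmp12, Mmp13 and Mmp27). The motif is in 4 of the 26 promoters of members and in 7.81% of the 32851 promoters of that length. The 100 bases before the start of these genes are shown because Mmp3, Mmp10 and Mmp13 fell together at day 2 of the scrambled arm, described below, and the capitals mark the AP-1 letters. All are on the plus strand of chromosome 9, and the Mmp12 sequence is the second of its 2 listed starts, the first having no match. Mmp12 was not called at scrambled day 2. Mmp11, Mmp14, Mmp23, Timp2, Timp3, Adamts14, Adamtsl3 and Adamtsl5 fell there and have a listed promoter with no match in this window. A link between the motif and these falls was not tested.
Mmp3, chr9:7445722-7445821: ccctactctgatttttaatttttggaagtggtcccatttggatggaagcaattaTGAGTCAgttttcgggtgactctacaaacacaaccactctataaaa
Mmp10, chr9:7502242-7502341: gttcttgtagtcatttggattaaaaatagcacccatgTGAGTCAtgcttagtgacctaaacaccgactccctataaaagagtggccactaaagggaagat
Mmp12, chr9:7347274-7347373: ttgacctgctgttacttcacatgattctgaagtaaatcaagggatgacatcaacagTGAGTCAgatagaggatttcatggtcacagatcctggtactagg
Mmp13, chr9:7272414-7272513: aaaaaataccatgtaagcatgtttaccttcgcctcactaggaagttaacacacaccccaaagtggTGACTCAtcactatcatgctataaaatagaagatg
The match begins 46 bases before the start in Mmp3, 63 in Mmp10, 44 in Mmp12 and 35 in Mmp13. The letters CTTTGAT, bound by Tcf and Lef factors, were in 0 of the 26 promoters (3.73% of all promoters), the DR1 element of nuclear receptors such as Pparg in 0 (0.0396%), an NF-kB element in 0 (1.63%), and an interferon-response element in 1, Mmp13 (3.44%), all searched on both strands. A match is a description of the letters, and its absence says only that they are not in this window.

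The libraries held 20153362 to 33973608 reads. Tcf7l2 was at 38.5 to 59.0 RPM in the scrambled libraries and at 12.2 to 23.4 RPM in the knockdown libraries, and the 2 ranges did not overlap. The 8 adipocyte markers summed to 745.4 to 2653 RPM in the knockdown libraries of days 4 to 8. In the scrambled libraries of those days they summed to 1670 to 5700.3 RPM in library 1 and to 6872 to 14346 RPM in library 2, so library 2 stood apart in the scrambled arm at days 4, 6 and 8. The 6 interferon response markers summed to 64.0 to 294.4 RPM in the scrambled libraries and to 140.8 to 1387 RPM in the knockdown libraries. Within each of the 5 days both knockdown sums of the interferon markers were above both scrambled sums. Those of the adipocyte markers were below both scrambled sums within each day, with 69.9 and 50.5 against 100.6 and 83.5 RPM at day 0. The 7 fibroblast markers summed to 7305 to 27985 RPM in the scrambled and 10777 to 26858 RPM in the knockdown libraries. Both knockdown sums were above both scrambled sums on days 2, 4, 6 and 8, and the arms overlapped at day 0. Most of the sum was Col3a1 and Col1a1 (up to 13673 and 10540 RPM), while Cd34 was at 0.129 to 1.72 RPM. The 5 macrophage markers summed to 12.2 to 20.2 RPM in the scrambled and 14.4 to 20.1 RPM in the knockdown libraries, of which Itgam alone gave 10.5 to 18.9 RPM, while Emr1 had 0 reads and Ptprc 15. The 4 muscle markers summed to 1.72 to 38.8 and 1.57 to 11.3 RPM, mostly Des (up to 38.8 RPM), with 0 reads of Myod1 and Ckm. The 4 chondrocyte markers summed to 34.9 to 143.7 and 44.2 to 99.4 RPM, mostly Sox9 (34.8 to 143.2 RPM), with 1 read of Acan. The 4 endothelial markers summed to at most 1.28 RPM. Of the 37 members, 23 were lower in scrambled library 2 than in library 1 on each of days 4, 6 and 8 (62.2%, against 41.1% of all genes tested), and 2, Adamts15 and Mmp28, were higher on each (5.41%, against 27.7%). Beyond fits without library 2 of either arm on those days (the late second libraries, below), the part of these differences in the results was not tested. In bulk RNA, fewer cells of a type and less RNA per cell cannot be told apart.

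**Figure D1:**
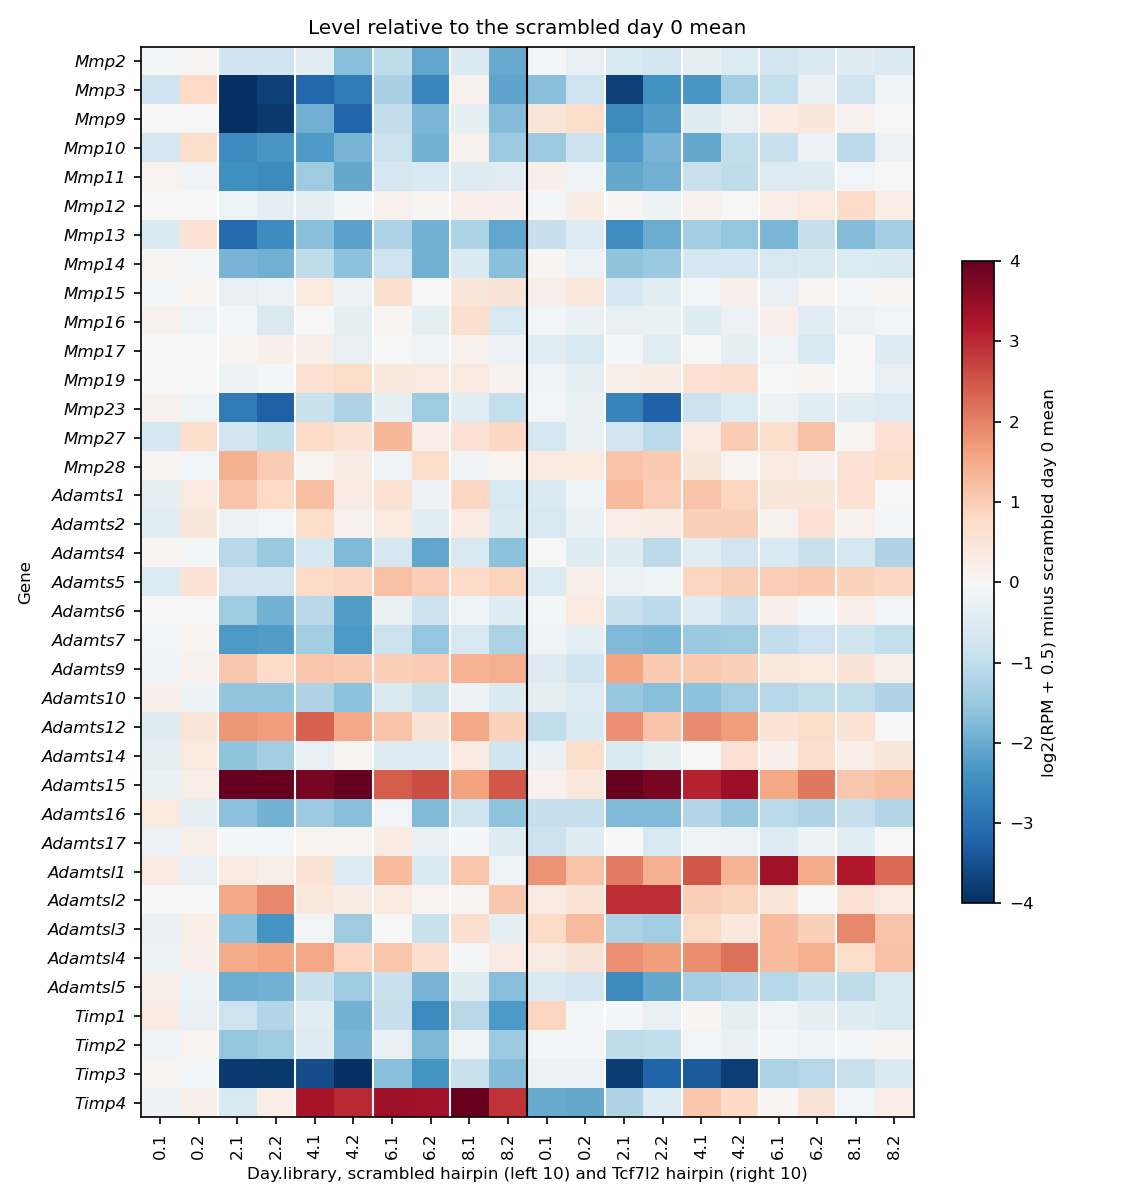
Colours give log2(RPM + 0.5) of each of the 37 genes (rows) in each of the 20 libraries (columns, day and library number) minus the mean of the 2 scrambled day 0 libraries, with colours limited at 4 in either direction. Timp3, Mmp3 and Mmp9 are low at day 2 in both arms, Adamts15 is high at days 2 and 4 in both arms, and Timp4 is high from day 4 in the scrambled arm.

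Averaged over the 5 days, 10 members were higher and 6 lower in the knockdown libraries (limma on the deposited log2 values, adjusted p of at most 0.05 over 16497 genes, termed called below). That is 16 of 37 (43.2%), against 25.4% of all genes tested, of which 12.3% were higher and 13.2% lower. The median difference of the members was 0.12 on the log2 scale, against -0.0028 over all genes. The called members were higher for Mmp9, Adamtsl1, Timp1, Adamtsl3, Timp2, Adamts14, Adamtsl4, Mmp14, Adamts6 and Mmp11, and lower for Timp4, Adamts12, Adamts15, Adamts9, Adamts10 and Mmp17. Both knockdown libraries lay above both scrambled libraries on all 5 days in 4 of 37 members (10.8%, against 3.85% of all genes), which are Mmp9, Adamtsl1, Adamtsl3 and Adamtsl4. No member lay below on all 5 days (0 of 37, against 2.35% of all genes), and Timp4, Adamts9 and Adamts15 lay below on 4 days. By role, 3 of 5 Adamts-like genes rose, 2 of 4 Timps rose and 1 fell, and of the 5 aggrecanases or hyalectanases 2 fell. The stromelysins had 1 of 3 higher, the gelatinases 1 of 2 higher and the membrane-type enzymes 1 higher and 1 lower of 4. Without the late second libraries the count was 14, and the calls of Timp2, Mmp14, Adamts14, Adamts15 and Adamts9 were lost. The average takes the libraries of an arm over the days as independent, although they may share 1 selected population.

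**Figure D2:**
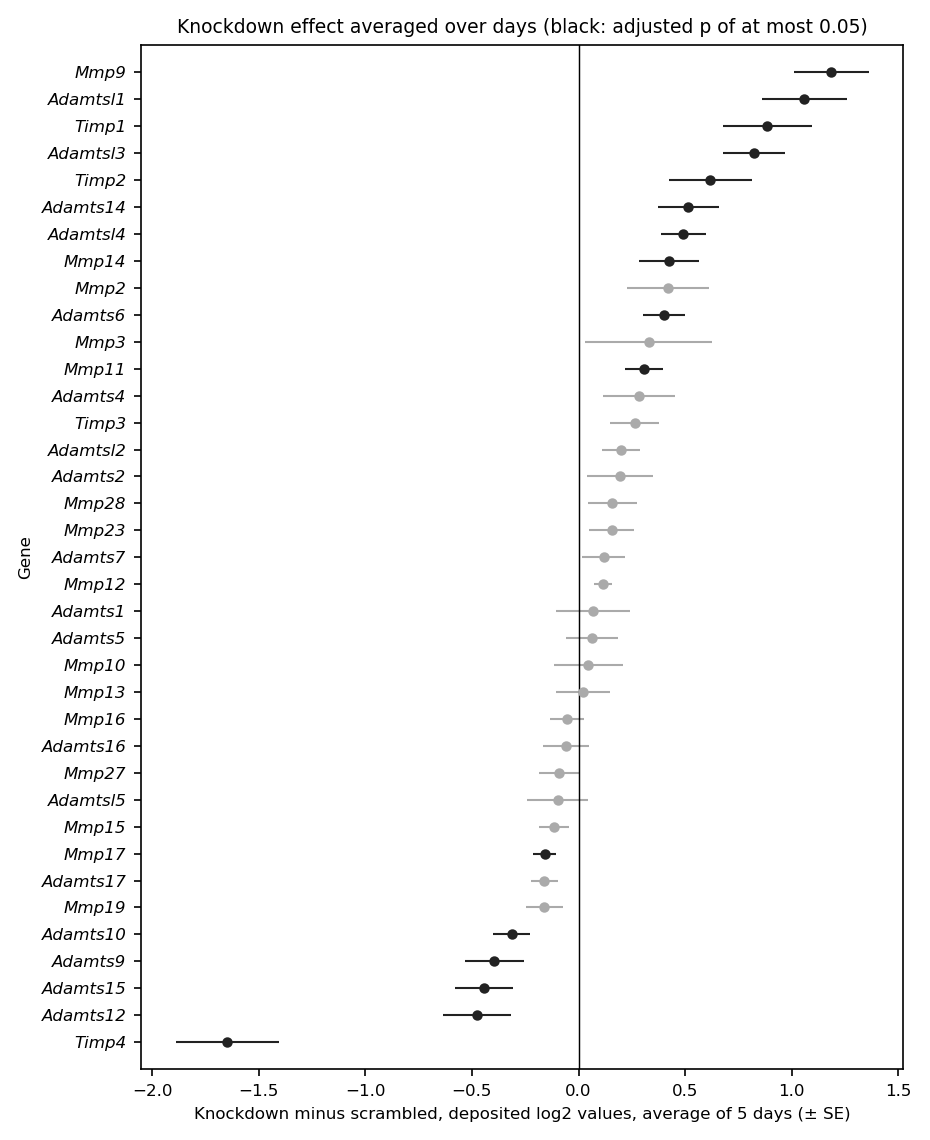
Points give the knockdown minus scrambled difference of the deposited log2 values averaged over 5 days, with bars of 1 SE, for the 37 genes ordered by size. Black marks the 16 called genes, and Timp4 at -1.65 and Mmp9 at 1.19 are the ends of the range.

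Of the inhibitors, Timp4 was lower and Timp1 and Timp2 were higher in the knockdown libraries. Timp4 was at 1.39 and 2.05 RPM (day 0), 0.945 and 2.12 (day 2), 21.0 and 17.3 (day 4), 22.4 and 21.9 (day 6) and 34.6 and 16.0 (day 8) in the scrambled libraries. Knockdown libraries held Timp4 at 0.0398 and 0.0342 RPM (day 0), 0.454 and 0.997 (day 2), 4.10 and 3.28 (day 4), 1.83 and 2.66 (day 6) and 1.53 and 2.14 (day 8). Both knockdown libraries were below both scrambled libraries on days 0, 4, 6 and 8, and the 4 libraries overlapped at day 2. Means of the knockdown libraries were 19.2%, 10.2% and 7.28% of the scrambled means on days 4, 6 and 8. On the deposited log2 scale, which compresses low counts, Timp4 fell by 1.65 ± 0.24 on average (SE, adjusted p = 0.000139, limma), by 1.73 ± 0.23 on day 4 (adjusted p = 0.00139), then by 2.42 ± 0.23 on day 6 (adjusted p = 0.000292), then by 2.80 ± 0.23 on day 8 (adjusted p = 0.000104). At day 0 the limma call was not made, and the 2 knockdown libraries held 2 reads together against 94 in the scrambled libraries, a ratio of scrambled to knockdown of 48.8 (95% exact interval 13.1 to 409.0, counting error only). The average call held in all 28 alternatives, and the calls at days 4 and 6 in all 27. The day 8 call was lost when the day 8 table was fitted alone, with 4 libraries (adjusted p = 0.336).

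Timp4 lies on chromosome 6 (GRCm38, 115241892 to 115252205, minus strand), 108745 bases from Pparg, the nuclear receptor that drives adipogenesis. It lies within Syn2, a gene of the opposite strand, with which it shares 90 exon bases. The library kit does not mark strand, and reads of the shared bases cannot be told apart. Syn2 reached 182.7 RPM and was lower in the knockdown libraries too, by 1.47 ± 0.39 on average (SE, adjusted p = 0.0126, limma). In scrambled library 2 of day 6 Syn2 stood at 182.7 RPM and in library 1 at 31.1 RPM, while Timp4 stood at 21.9 and 22.4 RPM. These are 1 pair of libraries, and the part of Syn2 reads in the Timp4 values was not tested. Timp1 lies within Syn1 and shares 0 exon bases with it, and Timp3 lies within Syn3 and shares 1733. Syn1 and Syn3 had 473 and 140 reads in all libraries.

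Timp1, a broad inhibitor of soluble metalloproteinases, was higher in the knockdown libraries. Timp1 was at 101.2 and 62.8 RPM (day 0), 44.7 and 34.9 (day 2), 57.5 and 21.2 (day 4), 41.7 and 13.3 (day 6) and 37.1 and 15.8 (day 8) in the scrambled libraries. Knockdown libraries held Timp1 at 145.4 and 75.5 RPM (day 0), 76.6 and 63.1 (day 2), 83.9 and 60.8 (day 4), 72.7 and 62.6 (day 6) and 56.5 and 53.1 (day 8). The arms overlapped at day 0, and both knockdown libraries were above both scrambled libraries on the other 4 days. Knockdown means were 1.75, 1.84, 2.46 and 2.07 times the scrambled means on days 2, 4, 6 and 8. Averaged over the days the difference was 0.89 ± 0.21 (SE, adjusted p = 0.00591, limma), and 0.58 without the late second libraries (adjusted p = 0.0155). With the replicate number as a block Timp1 was called at day 6 too (adjusted p = 0.0299). Within the scrambled arm Timp1 was lower at day 6 than at day 0, by 1.74 ± 0.53 (adjusted p = 0.0394, limma voom).

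Timp2, which inhibits Mmp14 and also takes part in the activation of the Mmp2 precursor, had the highest level of the 4 inhibitors. Timp2 was at 1372 and 1640.0 RPM (day 0), 508.9 and 555.7 (day 2), 1048 and 422.4 (day 4), 1183 and 432.7 (day 6) and 1325 and 550.1 (day 8) in the scrambled libraries. Knockdown libraries held Timp2 at 1463 and 1413 RPM (day 0), 738.3 and 753.5 (day 2), 1378 and 1246 (day 4), 1461 and 1363 (day 6) and 1439.7 and 1593 (day 8). Scrambled library 2 was at 40.3%, 36.6% and 41.5% of library 1 on days 4, 6 and 8, and the knockdown libraries of those days were above both. The average difference was 0.62 ± 0.20 (SE, adjusted p = 0.0301, limma). With the late second libraries left out it was 0.24 and was not called (adjusted p = 0.0984), and the call was also lost in 9 of the 20 fits that leave out 1 library.

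Timp3, a matrix-bound inhibitor that also acts on Adamts enzymes, changed over the days in both arms. Timp3 was at 57.2 and 48.3 RPM (day 0), 3.22 and 3.15 (day 2), 4.06 and 2.62 (day 4), 15.8 and 9.61 (day 6) and 28.0 and 15.6 (day 8) in the scrambled libraries. Knockdown libraries held Timp3 at 45.9 and 44.2 RPM (day 0), 3.28 and 5.26 (day 2), 4.67 and 3.40 (day 4), 21.5 and 23.8 (day 6) and 28.4 and 34.9 (day 8). All 8 libraries of days 2 and 4 were below all 12 libraries of the other days. Timp3 fell by 3.95 ± 0.32 on the log2 scale from day 0 to day 2 in the scrambled arm (SE, adjusted p = 7.71e-06, limma voom) and fell by 3.29 ± 0.30 in the knockdown arm (adjusted p = 2.10e-05). At day 8 it was still lower than at day 0 in the scrambled arm, by 1.29 ± 0.24 (adjusted p = 0.00717), a call that was lost without scrambled day 0 library 1 and without scrambled day 8 library 2. The average knockdown difference was 0.26 ± 0.11 and was not called (adjusted p = 0.101).

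**Figure D3:**
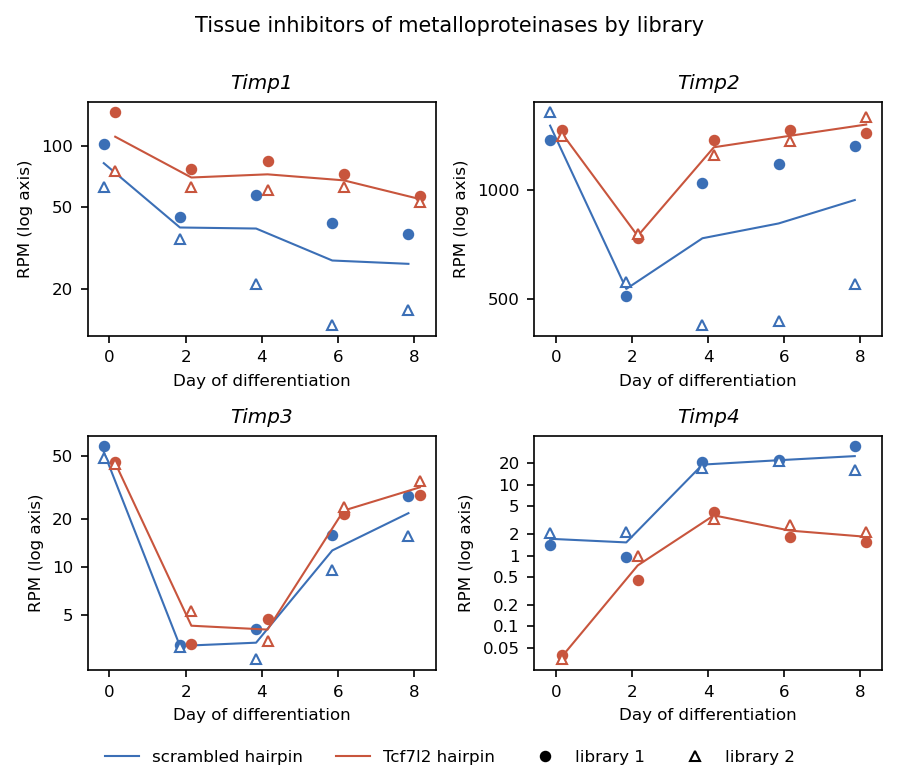
Points give RPM (log axis) of the 4 inhibitors by day for each library, with lines through the mean of 2 libraries. Timp4 of the knockdown arm is below the scrambled arm on days 0, 4, 6 and 8, and the second scrambled library (open triangle) is low for Timp1 and Timp2 from day 4.

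The gelatinase Mmp9, which cuts denatured collagen and basement membrane collagen, was the called member with the largest average rise on the deposited log2 scale. Mmp9 was at 46.8 and 46.8 RPM (day 0), 1.42 and 2.74 (day 2), 11.9 and 4.74 (day 4), 23.6 and 12.7 (day 6) and 35.9 and 13.8 (day 8) in the scrambled libraries. Knockdown libraries held Mmp9 at 65.1 and 75.7 RPM (day 0), 7.61 and 9.63 (day 2), 33.2 and 37.9 (day 4), 58.9 and 63.9 (day 6) and 52.4 and 47.1 (day 8). The arms did not overlap on any of the 5 days. Ratios of the means, knockdown over scrambled, were 1.51, 4.15, 4.27, 3.38 and 2.00 on days 0, 2, 4, 6 and 8. On average the difference was 1.19 ± 0.18 (SE, adjusted p = 0.000151, limma) and held in all 28 alternatives. On recovered reads, which do not compress low counts, it was 1.43, and that of Adamtsl1 was larger at 2.51. Mmp9 was called at day 4 (1.82 ± 0.34, adjusted p = 0.0117) and at day 6 (1.63 ± 0.34, adjusted p = 0.0189). The day 4 call was lost without scrambled day 4 library 2 and without either knockdown day 4 library, and the day 6 call was lost in the same way at day 6. Both calls were also lost when the day table was fitted alone, and that of day 4 without the late second libraries. Within the scrambled arm Mmp9 fell by 4.42 ± 0.55 from day 0 to day 2 (adjusted p = 0.000129, limma voom), and within the knockdown arm it fell by 2.90 ± 0.41 (adjusted p = 0.000472).

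Mmp2, the other gelatinase, was the most abundant member and was not called in any knockdown comparison. Mmp2 was at 3199.6 and 3372 RPM (day 0), 1876 and 1875 (day 2), 2418 and 1009 (day 4), 1634 and 774.2 (day 6) and 2182 and 806.7 (day 8) in the scrambled libraries. Knockdown libraries held Mmp2 at 3117 and 2614 RPM (day 0), 2137 and 1954 (day 2), 2586 and 2234 (day 4), 1959 and 2209 (day 6) and 2337 and 2202 (day 8). Library 2 of the scrambled arm was low on days 4, 6 and 8, and both knockdown libraries were above both scrambled libraries on days 2, 6 and 8 and below them at day 0. Over the 5 days the difference averaged 0.42 ± 0.19 (SE, adjusted p = 0.114, limma). Within the scrambled arm Mmp2 was lower at day 6 than at day 0, by 1.50 ± 0.42 (adjusted p = 0.0289, limma voom).

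Mmp14, the membrane-type enzyme that activates the Mmp2 precursor and cuts fibrillar collagen at the cell surface, was higher in the knockdown libraries on average. Mmp14 was at 1433 and 1325 RPM (day 0), 381.3 and 365.0 (day 2), 688.1 and 443.8 (day 4), 773.6 and 366.2 (day 6) and 923.7 and 430.9 (day 8) in the scrambled libraries. Knockdown libraries held Mmp14 at 1454 and 1176 RPM (day 0), 453.8 and 493.7 (day 2), 848.9 and 863.2 (day 4), 892.6 and 932.8 (day 6) and 947.9 and 913.5 (day 8). Both knockdown libraries were above both scrambled libraries on days 2, 4 and 6, while the arms overlapped at days 0 and 8. Averaged over the days it was 0.42 ± 0.14 (SE, adjusted p = 0.0368, limma). With the late second libraries left out it was 0.16 and was not called (adjusted p = 0.229), and the call was lost in 11 of the 20 fits that leave out 1 library. In the scrambled arm Mmp14 fell by 1.80 ± 0.31 from day 0 to day 2 (adjusted p = 0.00133, limma voom) and stood -1.08 ± 0.32 from day 0 at day 8 (adjusted p = 0.0479).

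Mmp3, the stromelysin that cuts many matrix proteins and activates other Mmp precursors, differed widely between libraries of 1 group. Mmp3 was at 17.6 and 54.2 RPM (day 0), 0.902 and 1.85 (day 2), 3.10 and 4.07 (day 4), 12.3 and 4.66 (day 6) and 34.9 and 6.76 (day 8) in the scrambled libraries. Knockdown libraries held Mmp3 at 9.32 and 17.1 RPM (day 0), 1.88 and 5.36 (day 2), 5.82 and 11.9 (day 4), 15.7 and 25.8 (day 6) and 17.6 and 27.7 (day 8). The scrambled libraries of day 0 and of day 8 were far apart. Both knockdown libraries were below both scrambled libraries at day 0 and above them on days 2, 4 and 6. The average difference was 0.33 ± 0.30 (SE) and was not called (adjusted p = 0.438, limma), and without the late second libraries it was -0.19 (adjusted p = 0.707). Within the scrambled arm Mmp3 fell by 4.47 ± 1.07 from day 0 to day 2 (adjusted p = 0.00871, limma voom).

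Mmp13, the main interstitial collagenase of the mouse, was low throughout. Mmp13 was at 5.06 and 12.0 RPM (day 0), 0.473 and 0.971 (day 2), 2.10 and 1.39 (day 4), 3.05 and 1.76 (day 6) and 2.94 and 1.50 (day 8) in the scrambled libraries. Knockdown libraries held Mmp13 at 3.90 and 5.34 RPM (day 0), 0.977 and 1.62 (day 2), 2.75 and 2.38 (day 4), 1.83 and 3.88 (day 6) and 2.01 and 2.78 (day 8). The highest library was scrambled day 0 library 2, and the day 2 libraries of both arms were below every other library of their arm. From day 0 to day 2 Mmp13 fell by 3.42 ± 0.61 in the scrambled arm (SE, adjusted p = 0.00143, limma voom) and fell by 1.72 ± 0.55 in the knockdown arm (adjusted p = 0.0498). At day 8 of the scrambled arm it stood -1.92 ± 0.48 from day 0 (adjusted p = 0.0247), a call lost without scrambled day 0 library 2 and without scrambled day 8 library 2. The average knockdown difference was 0.02 ± 0.13 and was not called (adjusted p = 0.920, limma), and without the late second libraries it was -0.16 (adjusted p = 0.501).

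Mmp11, stromelysin 3, was at 67.5 to 87.3 RPM in the 4 libraries of day 0 and at 12.6 to 19.9 RPM in the 4 libraries of day 2. It was called in the average effect (0.31 ± 0.09, SE, adjusted p = 0.0190, limma) and at day 4 (0.72 ± 0.16, adjusted p = 0.0491), the latter lost in 15 of the 20 fits that leave out 1 library. Mmp19 was called lower at day 8, by 0.47 ± 0.12 (adjusted p = 0.0393), with 107.0 and 94.4 RPM in the scrambled and 83.2 and 66.8 RPM in the knockdown libraries. That call was lost in 12 of the 20 fits. Both knockdown libraries of Mmp19 were also below both scrambled ones at days 0 and 6. At day 2 they were above both (means of 101.2 against 76.2 RPM), and at day 4 the arms overlapped. The difference at day 6 was -0.40 (adjusted p = 0.0815, and 0.0321 with the replicate block, limma). Mmp19 shares 789 exon bases with Tmem198b on the opposite strand (10526 reads in all libraries, up to 31.8 RPM), and the part of those reads in its values was not tested. Mmp17, a membrane-type enzyme held by a lipid anchor, was lower on average by 0.16 ± 0.05 (adjusted p = 0.0379, limma), on 258 reads in all 20 libraries. The call was lost with no filter on low counts (adjusted p = 0.0535) and with median centring (adjusted p = 0.0781). It was also lost in 12 of the 20 fits that leave out 1 library. Of the 15 Mmp genes, 11 were not called in the average effect, among them Mmp10, Mmp12, Mmp23 and Mmp27.

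**Figure D4:**
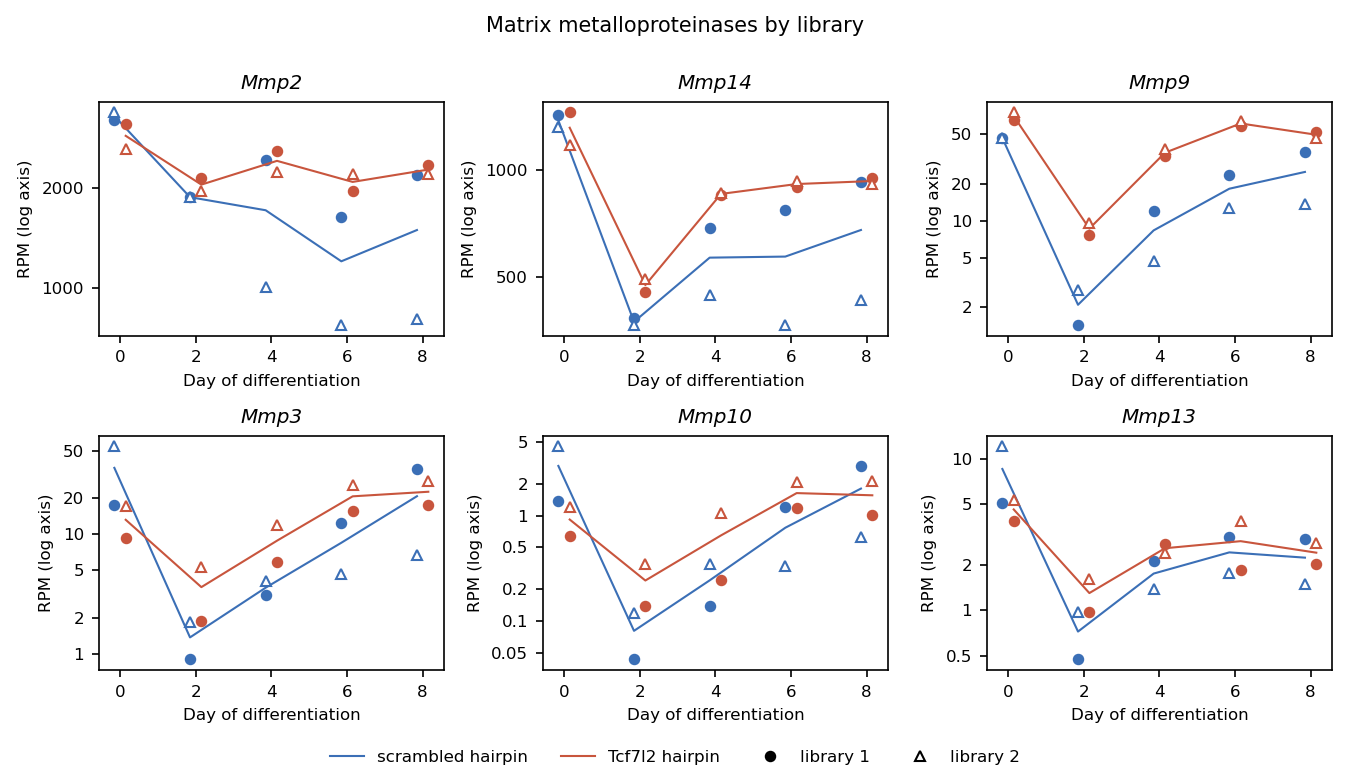
Points give RPM (log axis) of 6 Mmp genes by day for each library, with lines through the mean of 2 libraries. Mmp9 is higher in the knockdown arm on all 5 days, and the stromelysins Mmp3 and Mmp10 and the collagenase Mmp13 are lowest at day 2 in both arms.

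Adamts1, which cuts versican and aggrecan, was the most abundant Adamts gene and was not called between the arms. Adamts1 was at 505.1 and 881.0 RPM (day 0), 1487 and 1151 (day 2), 1537 and 833.2 (day 4), 1029 and 581.9 (day 6) and 1184 and 428.6 (day 8) in the scrambled libraries. Knockdown libraries held Adamts1 at 449.7 and 586.9 RPM (day 0), 1601 and 1313 (day 2), 1485 and 1218 (day 4), 912.9 and 917.9 (day 6) and 986.1 and 661.4 (day 8). The arms overlapped on all 5 days, and the average difference was 0.07 ± 0.17 (SE, adjusted p = 0.796, limma), and -0.13 without the late second libraries (adjusted p = 0.574). In the knockdown arm Adamts1 rose by 1.64 ± 0.42 from day 0 to day 2 (adjusted p = 0.0187, limma voom), and in the scrambled arm the means of those days were 693.1 and 1319 RPM, called with the replicate block only (adjusted p = 0.0452).

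Adamts5, an aggrecanase whose gene lies 53059 bases from Adamts1 on chromosome 16, stood higher at days 4 to 8 than at days 0 and 2. Adamts5 was at 55.5 and 118.1 RPM (day 0), 47.6 and 47.7 (day 2), 137.1 and 147.5 (day 4), 183.2 and 161.4 (day 6) and 136.7 and 150.2 (day 8) in the scrambled libraries. Knockdown libraries held Adamts5 at 55.4 and 94.7 RPM (day 0), 69.1 and 72.3 (day 2), 146.3 and 156.3 (day 4), 161.7 and 166.4 (day 6) and 154.2 and 144.9 (day 8). All libraries of days 4, 6 and 8 were above all those of days 0 and 2. The rise from day 0 was called at day 6 in the scrambled arm (1.13 ± 0.29, SE, adjusted p = 0.0219, limma voom), and in the knockdown arm at days 6 and 8 only with the replicate block (1.20 with adjusted p = 0.0202 at day 6 and 1.07 with adjusted p = 0.0359 at day 8). The average knockdown difference was 0.06 ± 0.12 (adjusted p = 0.725, limma).

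Adamts9, Adamts12, Adamts15 and Adamts10 were lower in the knockdown libraries on average. Adamts9, which cuts versican and aggrecan, was at 89.0 and 92.7 RPM in the scrambled libraries of day 8 and at 48.4 and 39.5 RPM in the knockdown libraries. At day 2 it was at 71.9 and 57.3 against 102.4 and 69.9 RPM, so the arms overlapped there. Its difference at day 8 was -1.06 ± 0.17 (SE, adjusted p = 0.00525, limma). This call was lost without scrambled day 8 library 2, without knockdown day 8 library 2, without all late second libraries and when the day table was fitted alone. The average, -0.40 ± 0.14 (adjusted p = 0.0442), was not called with the replicate block (adjusted p = 0.0658) nor in 16 of the 20 fits that leave out 1 library. From day 0 Adamts9 rose in both arms at all 4 later days, to 2.67 times at day 8 in the scrambled arm (1.46 ± 0.19, adjusted p = 0.00147, limma voom) and 2.06 times in the knockdown arm (1.07 ± 0.20, adjusted p = 0.0290).

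Adamts15, a versican-cutting enzyme, rose in both arms at day 2. It was at 3.57 and 5.29 RPM in the scrambled and 5.02 and 6.06 RPM in the knockdown libraries of day 0, and at 98.1 and 93.6 against 87.4 and 66.5 RPM at day 2. By day 8 the levels were 14.2 and 26.5 RPM in the scrambled and 9.73 and 10.8 RPM in the knockdown libraries. All 4 libraries of day 0 were below every later library. The rise from day 0 to day 2 was 4.51 ± 0.37 in the scrambled arm (SE, adjusted p = 8.55e-06, limma voom) and 3.92 ± 0.35 in the knockdown arm (adjusted p = 1.77e-05). Both knockdown libraries were below both scrambled libraries from day 2 on. On average the difference was -0.44 ± 0.14 (adjusted p = 0.0265, limma), lost in 5 of the 20 fits that leave out 1 library and without the late second libraries (-0.30, adjusted p = 0.116).

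Adamts12, which cuts cartilage oligomeric matrix protein, was lower by 0.48 ± 0.16 on average (SE, adjusted p = 0.0386, limma), a call lost in 11 of the 20 fits that leave out 1 library. At day 8 it was at 368.6 and 236.0 RPM in the scrambled and 185.3 and 126.1 RPM in the knockdown libraries, and the arms did not overlap. Adamts10, which binds fibrillin microfibrils, was lower by 0.31 ± 0.09 on average (adjusted p = 0.0147) and by 0.71 ± 0.16 at day 8 (adjusted p = 0.0198). Its day 8 libraries held 49.1 and 37.2 RPM in the scrambled and 28.4 and 24.1 RPM in the knockdown arm. The day 8 call was lost without scrambled day 8 library 2 and without either knockdown day 8 library. It was also lost without the late second libraries and when the day table was fitted alone.

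Adamts14 and Adamts6 were higher in the knockdown libraries. Adamts14, a procollagen N-proteinase, was at 16.9 and 16.9 RPM in the scrambled and at 28.3 and 39.5 RPM in the knockdown libraries of day 6. The arms did not overlap at days 2 and 6. Over the 5 days the difference averaged 0.51 ± 0.14 (SE, adjusted p = 0.0158, limma) and 0.38 without the late second libraries (adjusted p = 0.113). Adamts6, a relative of Adamts10, was higher by 0.40 ± 0.10 (adjusted p = 0.00883), and its arms overlapped only at day 0. Of the 13 Adamts genes 7 were not called in the average effect.

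Of the Adamts-like genes, Adamtsl1, Adamtsl3 and Adamtsl4 were higher in the knockdown libraries on all 5 days. Adamtsl1 was at 0.794 and 0.311 RPM (day 0), 0.816 and 0.706 (day 2), 0.998 and 0.221 (day 4), 1.98 and 0.183 (day 6) and 1.70 and 0.433 (day 8) in the scrambled libraries. Knockdown libraries held Adamtsl1 at 3.03 and 1.78 RPM (day 0), 3.70 and 2.27 (day 2), 5.25 and 2.13 (day 4), 9.91 and 2.34 (day 6) and 8.87 and 4.41 (day 8). The arms did not overlap on any of the 5 days, with the means of the knockdown libraries 3.92 to 6.21 times the scrambled means. The gene is low, with 1331 reads in all libraries, and library 1 was above library 2 in every group. On the deposited log2 scale the average difference was 1.06 ± 0.20 (SE, adjusted p = 0.00124, limma), on recovered reads 2.51 (adjusted p = 0.000419). With the replicate block Adamtsl1 was called at days 0, 4, 6 and 8 (adjusted p = 0.0269, 0.00210, 0.00108 and 0.000800), and without the block at none.

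Adamtsl3, a relative of Adamtsl1, had higher levels. Adamtsl3 was at 3.67 and 5.54 RPM (day 0), 1.07 and 0.471 (day 2), 4.16 and 1.39 (day 4), 4.52 and 2.2 (day 6) and 7.28 and 3.43 (day 8) in the scrambled libraries. Knockdown libraries held Adamtsl3 at 8.09 and 11.5 RPM (day 0), 1.60 and 1.41 (day 2), 8.11 and 6.18 (day 4), 11.4 and 9.23 (day 6) and 18.5 and 10.5 (day 8). Both knockdown libraries were above both scrambled libraries on all 5 days, and day 2 was the lowest of both arms. Averaged over the days it was 0.82 ± 0.14 (SE, adjusted p = 0.000728, limma), and the call held in all 28 alternatives. Day 8 was called (1.13 ± 0.31, adjusted p = 0.0485, limma) but not in 15 of the 20 fits that leave out 1 library. The day 8 call was also lost with no filter, with a filter at 50, on recovered reads and with median centring. Leaving out the late second libraries or fitting the day table alone ended it too. With the replicate block days 4 and 6 were called too (adjusted p = 0.0125 and 0.00411).

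Adamtsl4, which binds fibrillin microfibrils, was the most abundant of the called Adamts-like genes. Adamtsl4 was at 16.6 and 21.8 RPM (day 0), 54.2 and 57.3 (day 2), 56.8 and 35.3 (day 4), 41.5 and 30.9 (day 6) and 18.0 and 24.3 (day 8) in the scrambled libraries. Knockdown libraries held Adamtsl4 at 24.7 and 27.6 RPM (day 0), 69.1 and 61.5 (day 2), 71.0 and 88.9 (day 4), 46.0 and 52.6 (day 6) and 31.3 and 43.7 (day 8). The arms did not overlap on any day, and the gaps were small beside those of Adamtsl1, with knockdown means 1.17 to 1.78 times the scrambled means. The average difference was 0.49 ± 0.10 (SE, adjusted p = 0.00319, limma). Adamtsl4 rose from day 0 to day 2 by 1.62 ± 0.26 in the scrambled arm (adjusted p = 0.000683, limma voom) and by 1.45 ± 0.25 in the knockdown arm (adjusted p = 0.00156). Adamtsl2 and Adamtsl5 were not called in the average effect. Adamtsl2 reached its highest levels at day 2, with 1.07 and 1.59 RPM in the scrambled and 3.77 and 3.82 RPM in the knockdown libraries, against 3 reads in both scrambled libraries of day 0 together, a ratio of day 2 to day 0 of 24.0 (95% exact interval 7.93 to 119.1, counting error only).

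**Figure D5:**
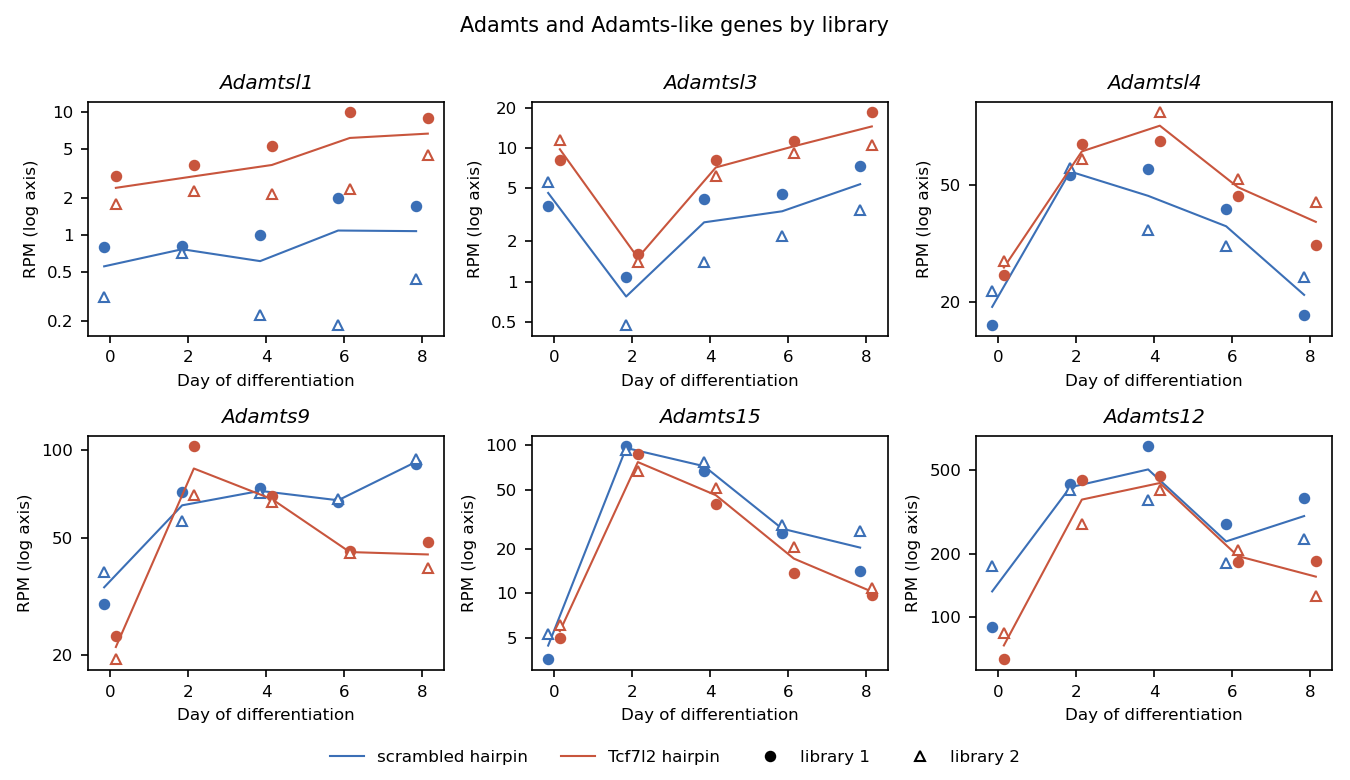
Points give RPM (log axis) of 3 Adamts-like and 3 Adamts genes by day for each library, with lines through the mean of 2 libraries. Adamtsl1, Adamtsl3 and Adamtsl4 are higher in the knockdown arm on all 5 days, while Adamts9, Adamts15 and Adamts12 are lower in it at day 8.

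Day by day, few members passed the test. On day 4, 3 of 37 were called (8.11%, against 1.61% of all genes), with 2 higher (against 1.41%) and 1 lower (against 0.200%). For day 6 the count was 2 (5.41%, against 4.12%), with 1 higher (against 2.68%) and 1 lower (against 1.44%). For day 8 it was 5 (13.5%, against 5.75%), with 1 higher (against 3.39%) and 4 lower (against 2.35%). On day 0, 0 members were called by limma (0.224% of all genes), 7 had an unadjusted p under 0.05, and voom on recovered reads called 0 too. On day 2, 0 were called by limma (0.267% of all genes), 4 had an unadjusted p under 0.05, and voom on recovered reads called 0. The counts of days 4, 6 and 8 changed when 1 library of their day was left out. At days 6 and 8, leaving out scrambled library 1 of the day gave the most members called and also the most genes called of all tested. Those rises are thus not particular to the members. Leaving out scrambled library 2 of the day lowered the member counts of days 4, 6 and 8. With the replicate block the counts for days 0 to 8 were 1, 0, 6, 10 and 8, and with the late second libraries left out they were 1, 1, 1, 3 and 2. The share of all genes called with the block or without the late second libraries is not given for any comparison, nor is that with an unadjusted p under 0.05. The block ended no call of a single day. Beside Adamtsl1, Adamtsl3, Timp1 and Mmp19, it added Adamts6 on days 4 and 6 (0.70 and 0.50, adjusted p = 0.0361 and 0.0411, limma). On day 6 it also added Adamts14 (0.84, adjusted p = 0.0370), Adamts15 (-0.65, adjusted p = 0.0450) and Adamts9 (-0.59, adjusted p = 0.0389). On day 8 it also added Adamts12 (-0.99, adjusted p = 0.0295) and Adamts15 (-0.85, adjusted p = 0.0227).

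No member passed the test of a knockdown effect that differs between days (0 of 37, and 0 of 16497 genes, 0%, limma voom F test, and 0 with the replicate block). The unadjusted value was under 0.05 for 4 members, Adamts9, Mmp19, Mmp11 and Adamts10, and none of them was called after adjustment. A knockdown difference called at 1 day and not at another is thus not shown to differ between them.

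Over time, more members fell than rose by day 2. In the scrambled arm 23 of 37 were called from day 0 to day 2, 6 higher and 17 lower (62.2%, against 24.7% of all genes, 11.1% higher and 13.6% lower), with a median of -0.94 against 0.013 over all genes. The largest falls were those of Mmp10 (-4.75 ± 1.29, SE, adjusted p = 0.0172, limma voom), Mmp3, Mmp9, Adamts16 (-4.07 ± 1.08, adjusted p = 0.0153), Timp3, Mmp13 and Mmp23 (-3.10 ± 0.33, adjusted p = 4.84e-05). Mmp10, the second stromelysin, was at 1.39 and 4.54 RPM at day 0 and at 0.0430 and 0.118 RPM at day 2 of that arm, and all 3 stromelysins fell. The rises were those of Adamts15, Adamtsl2, Adamts12, Adamtsl4, Mmp28 and Adamts9. Mmp28 shares 466 exon bases with a gene of the opposite strand that reached 8.29 RPM, whose part in its reads was not tested. In the knockdown arm 20 were called at day 2, 9 higher and 11 lower (54.1%, against 15.5% of all genes, 6.80% higher and 8.69% lower).

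At later days fewer members were called against day 0. In the scrambled arm 19 were called for day 4 (51.4%, against 14.0% of all genes), 18 for day 6 (48.6%, against 18.3%) and 8 for day 8 (21.6%, against 10.7%, with 5.64% of all genes higher and 5.03% lower). The 8 of day 8 were Timp4 (3.78 ± 0.43, SE, adjusted p = 0.000927, limma voom), Adamts15 (2.17 ± 0.38, adjusted p = 0.00626), Adamts9 and Adamts12 (1.29 ± 0.35, adjusted p = 0.0346) higher, and Mmp13, Timp3, Mmp14 and Adamts7 (-0.94 ± 0.24, adjusted p = 0.0254) lower. Adamts7 shares 122 exon bases with Tbc1d2b on the opposite strand (up to 235.2 RPM), whose part in its reads was not tested. In the knockdown arm 11 were called for day 4 (29.7%, against 3.13%), 2 for day 6 (5.41%, against 0.588%) and 2 for day 8 (5.41%, against 0.721%). Those 2 were Timp4 and Adamts9, both higher, at day 6 and at day 8. Leaving out 1 library at a time, Timp4 and Adamts9 of scrambled day 8 kept their calls, Mmp14 lost its call in 15 of 20 fits, and the other 5 lost theirs in 1 to 3. In the knockdown arm at day 8 Timp4 lost its call in 16 fits and Adamts9 in 7. For Timp4 in the knockdown arm the day 0 level rests on 2 reads, and the ratio of day 8 to day 0 was 51.8 (95% exact interval 14.0 to 433.6, counting error only). With the replicate block the scrambled count was 16 at day 8, and the knockdown arm counts were 6 at day 6 and 4 at day 8. Of the 8 members added at scrambled day 8, those described here were Timp1 (-1.66, adjusted p = 0.00314, limma voom), Mmp2 (-1.27, adjusted p = 0.0177), Adamts16 (-2.08, adjusted p = 0.0214), Adamtsl5 (-1.05, adjusted p = 0.0266), Mmp23 (-0.64, adjusted p = 0.0275) and Mmp9 (-1.02, adjusted p = 0.0460), all lower, and Adamts5 (0.86, adjusted p = 0.0207), higher. In the knockdown arm it added Adamts5 at days 6 and 8, Adamts12 (1.44, adjusted p = 0.0389), Adamts15 (1.65, adjusted p = 0.0151) and Timp3 (-0.96, adjusted p = 0.0378) at day 6, and Adamts10 (-0.62, adjusted p = 0.0418) at day 8. The block ended no call against day 0 and added 2 to 5 members at each of the other days, among them Timp1, Mmp2 and Timp2 at scrambled day 4 (-1.11, -1.01 and -1.11, adjusted p = 0.0164, 0.0434 and 0.0474). Without the late second libraries the scrambled counts were 11, 8 and 4 at days 4, 6 and 8, and the knockdown arm had 1 at day 6 and 0 at day 8. Of the fits that leave out 1 library, that without scrambled day 6 library 2 gave the fewest calls at scrambled day 6, of members and of all genes. At scrambled day 8 the same held for scrambled day 8 library 2, and the members were as few without scrambled day 0 library 1.

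Other genes of pericellular proteolysis were called in both directions, more of them higher. The 44 listed genes include plasminogen activators, cathepsins, Adam proteases and their regulators, and also Lox, Acan and Vcan. Of the list 35 were tested, and 14 were called in the average effect (40.0%, against 25.4% of all genes). Of these 11 were higher (31.4%, against 12.3%) and 3 lower (8.57%, against 13.2%), and the median of the 35 was 0.22, against -0.0028 over all genes. The lysosomal cathepsins Ctsl (0.63 ± 0.09, SE, adjusted p = 0.000164, limma) and Ctsz (0.34 ± 0.06, adjusted p = 0.000695) were higher, as were Plat, the tissue plasminogen activator (0.92 ± 0.16, adjusted p = 0.000791), the serine protease Htra1 (0.43 ± 0.09, adjusted p = 0.00274) and Adam9 (0.27 ± 0.06, adjusted p = 0.00423). Adam12 (-1.0 ± 0.16, adjusted p = 0.000271), Papln (-0.39 ± 0.09, adjusted p = 0.00626) and the proprotein convertase Furin (-0.23 ± 0.06, adjusted p = 0.0136) were lower. Within a day, Htra1 and Adam12 were called at days 6 and 8 in the same directions, and no other listed gene was. These 2 of 35 (5.71%) stand against 4.12% and 5.75% of all genes on those days.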

How the data were processed

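RNA of 20 libraries was sequenced with the TruSeq RNA kit, per the labels' protocols. TopHat2 2.0.13 with Bowtie2 2.2.3.0, the build mm9, SAMtools and DESeq2 1.10.1 are named in the submitters' processing notes. Which read counter and annotation were used is not given in the sources used here. Each day has 1 table that the authors deposited, with variance-stabilised log2 values per library normalised within the table. Per the file headers, the tables also hold a mean signal (the mean normalised count of 4 libraries), a log2 fold change with its error, a test score, a raw p-value and an adjusted one, all by the authors. Unused per-library columns numbered 0. A gene with 0 reads had a deposited value of 5.00 to 6.94, depending on the library's table, so differences of low genes are compressed.

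The transformation was inverted to recover read counts. Of 172312 values of up to 100 reads, 100% came out within 0.02 of a whole read. Levels are given as RPM, the recovered reads of a gene over all those of its library, and exon lengths and positions are from GENCODE M21 (GRCm38), matched by gene ID for all 37 members. The deposited tables gave no coordinates. For knockdown effects, limma (version 3.58.1, with trend and robust estimation, statmod 1.5.0, under R 4.3.3) was run on the deposited log2 values of the 16497 genes that reach a mean normalised count of 10 in some table. The average effect had day as a factor, and single days were contrasts in 1 fit of 10 group means. Days were compared with limma voom on recovered reads scaled by the median ratio, since the tables were normalised separately, and a moderated F test compared the knockdown effect between days. P-values were adjusted over all genes tested by Benjamini-Hochberg. The main fits between the arms and against day 0 were run on simulated counts with planted changes. The F test between days and the alternatives were not scored in this way. The simulated libraries were independent of each other.

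Within each day, libraries with the same number deviated together in both arms (correlations of 0.783, 0.702, 0.551, 0.537 and 0.468, in the order of the days). Fits with the replicate number as a block are thus printed for part of the calls they change. Between the arms and in the F test the block had a separate term for each day. Against day 0 it was a single term for the library number over all days and both arms, which takes library 2 to deviate alike on every day. The summed adipocyte markers did not: libraries 1 and 2 held 100.6 and 83.5 RPM at scrambled day 0, and 2511 and 14346 at scrambled day 8. Whether a number marks a shared culture is not in the labels. Alternatives were this block, no filter, a filter at 50, recovered reads, median centring, total-read scaling, the day table fitted alone, leaving out each library, and leaving out the libraries numbered 2 of days 4, 6 and 8. Intervals and ratios of single counts cover counting error only.

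The members and gene lists were chosen with earlier results of these data known. Named genes are the members called in the average or at a day, the 5 called members of largest rise and fall to day 8 in each arm, Timp1 to Timp4, Mmp2, Mmp14, Mmp3, Mmp13, Adamts1 and Adamts5, with per-library values for the last 10 and the 5 of smallest adjusted p in the average. Tcf7l2, adipocyte markers and the 8 called proteolysis genes of smallest adjusted p were also named. Mmp10, Mmp12, Mmp23, Mmp27, Mmp28, Adamts16, Adamtsl2, Adamtsl5, Syn2 and other genes overlapping members were named after their values were seen.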

Additional observations from a re-analysis of the deposited data

How the results depend on the processing

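No called value of a named member turned its direction under any alternative. Uncalled averages did: without the libraries numbered 2 of days 4, 6 and 8, Adamts1 was at -0.13, Mmp13 at -0.16 and Mmp3 at -0.19, and with the libraries numbered 1 alone at -0.097, -0.10 and -0.089. Leaving out 1 library at a time gave -0.030 to 0.16 for Adamts1 and -0.029 to 0.12 for Mmp13. With a replicate block, the members called between the arms were 1 for day 0, 6 for day 4, 10 for day 6 and 8 for day 8, 16 at scrambled day 8 against day 0, and 6 and 4 at days 6 and 8 of the knockdown arm against day 0. In the average effect the block ended the call of Adamts9, and 15 members were called. Without the libraries numbered 2 of days 4, 6 and 8, knockdown against scrambled gave 1, 1, 1 and 2 members at days 0, 2, 4 and 8, scrambled against day 0 gave 11, 8 and 4 at days 4, 6 and 8, and the knockdown arm 1 and 0 at days 6 and 8. When a day table was fitted alone, 1, 1, 1 and 0 members were called at days 2, 4, 6 and 8. At day 8 no filter gave 3 and recovered reads 3. Scaling to total reads gave 1 at day 8 of the knockdown arm. In the average effect, alternatives added after seeing the data gave 13 members from the libraries numbered 1 alone and 5 from those numbered 2 alone. The share of all genes called under the alternatives of this paragraph is not given. Changes of these counts are thus not shown to be particular to the members.

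Leaving out 1 library at a time gave 11 to 16 members for the average effect and 0 to 1, 0 to 0, 1 to 4, 1 to 9 and 1 to 12 for the knockdown at days 0, 2, 4, 6 and 8. For the scrambled arm against day 0 it gave 16 to 24, 11 to 20, 3 to 19 and 3 to 13 at days 2, 4, 6 and 8, and for the knockdown arm 13 to 20, 6 to 13, 0 to 4 and 0 to 2. For the effect that differs between days it gave 0 to 0. With 1 library left in a group, that library was assumed to vary like the other groups. Except in the test of effects that differ between days, the number of all genes called moved in these fits too. These ranges are thus not particular to the members. Of 26 called results of named genes between the arms 6 kept the call in every alternative, and of 103 over time 48 did. Depth limits the members of few reads, such as Adamts17 with 213 reads in 20 libraries.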

Other observations

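The authors' deposited table, which tests each day alone, called 1 member at day 0, Timp4 (log2 fold change -0.95, adjusted p = 0.00077), which is 2.78% of the members against 1.63% of all genes. At day 2 the authors' deposited table called 8 members, all higher in the knockdown libraries, which were Adamts14, Adamts2, Adamts5, Adamtsl1, Adamtsl2, Mmp9, Timp1 and Timp2 (23.5% of 34 with an adjusted p-value, against 4.72% of 15730 genes). The largest of these in the authors' deposited table was Mmp9 (log2 fold change 1.33, adjusted p = 1.75e-06). In RPM the knockdown mean of Timp4 at day 0 was 2.15% of the scrambled mean, and that of Mmp9 at day 2 was 4.15 times it. Both fold changes of the authors are thus smaller than the RPM ratios. At days 4, 6 and 8 the authors' deposited table called 3, 4 and 3 members (8.33%, 11.1% and 8.11%, against 2.53%, 6.16% and 3.55% of all genes), with Timp4 lower on all 3 days, Mmp9 higher at days 4 and 6 and Adamtsl1 higher at days 4 and 8. The call of Adamts14 and Adamtsl3 at day 6 and of Adamts9 at day 8 completes those in the authors' deposited table.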
